A study of Homo sapiens with 16 samples.

Results

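Introns 15 and 16 of EIF4G2, the most upstream pair of introns held by every sequenced construct, were followed across 16 libraries from HEK293T, a human embryonic kidney cell line. They were chosen by position, as 2 of the 21 introns of the transcript NM_001418.3, and their status was read only on molecules that covered exactly the introns of the construct. Nanopore sequencing of RT-PCR amplicons covered cells without transfection (NT, endogenous EIF4G2) and cells that received one of 4 minigenes (long, long_alt, short_1 and short_1_alt), each in 2 biological replicates, which gives 10 libraries, and polyadenylated RNA was sequenced directly, without PCR, in 1 library each of 6 minigenes. The long minigene held introns 15 to 20 and short_1 held introns 15 to 18. The long_alt and short_1_alt minigenes carried the other allele of a single-base difference in intron 17. For direct RNA, introns 19 and 20 were deleted from the long minigene (Δint19+20), the 5′ splice site of intron 19 was mutated in it (mut 5′SS), or 72 nt from the start of intron 19 were added to short_1 with that site intact (short + 72 nt) or mutated (short + 72 nt + mut 5′SS). All minigenes were driven by a CMV promoter on a transfected plasmid in place of the gene's own promoter and upstream exons. In short_1 and short_1_alt the transcript ended beyond a shortened exon 19, so the distance to the end of the transcript, the reverse primer and the amplicon length changed together with the presence of introns 19 and 20, and their parts cannot be told apart in RT-PCR.

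EIF4G2 encodes a translation initiation factor related to eIF4G that lacks the binding region for the cap-binding protein. An intron is removed when the spliceosome pairs its 5′ splice site with its 3′ splice site. A molecule on which neither is used and the intron sequence stays is scored as retained, and one on which a splice site is passed over in favour of a more distant one is scored as skipped. In the exon definition view, the splice sites at the ends of an internal exon are recognized together, so that a site can be passed over together with its exon.

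Both introns were short and lay in the coding sequence on the minus strand of chromosome 11 (GRCh38). Intron 15 measured 126 nt (chr11:10800836-10800961) and intron 16 measured 83 nt (chr11:10800648-10800730), the same length as intron 17, while intron 18 measured 333 nt. Their GC content was 31.75% and 30.12%. They flanked exon 16, of 105 nt, and each was present in 8 of 31 annotated transcripts of the gene. Read in the frame of the coding sequence, a retained intron 15 met a stop codon that began at its base 76. In a retained intron 16 the first stop codon began at base 28. Exon 17, downstream of intron 16, measured 216 nt, a multiple of 3, so that joining exon 16 to exon 18 keeps the frame. The splice sites are shown because every status below is a use of one of them, with intronic bases in capitals and exonic bases in lower case, 5′ to 3′ on the transcript strand, from the GRCh38 reference.

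Intron 15 5′ splice site: cagGTACAG
Intron 15 3′ splice site: TGTCATTGCTTGTTTTTTAGaca
Intron 16 5′ splice site: actGTAAGT
Intron 16 3′ splice site: GATACTTGTGTTCTTCACAGgaa
Intron 18 5′ splice site: cagGTAAGA
Intron 18 3′ splice site: AGGTGGCTTTGTCTCTTCAGaaa

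Each 5′ splice site of introns 15 and 16 matched the consensus cagGTAAGT at 6 of 9 positions, against 8 of 9 for intron 18. They departed from it on opposite sides of the junction, intron 15 in its intronic bases and intron 16 in the last bases of exon 16. Of the 20 intronic bases before the terminal AG, a window that starts upstream of the bases shown, 16 were pyrimidines in intron 15, 12 in intron 16 and 13 in intron 18.

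**Figure D1:**
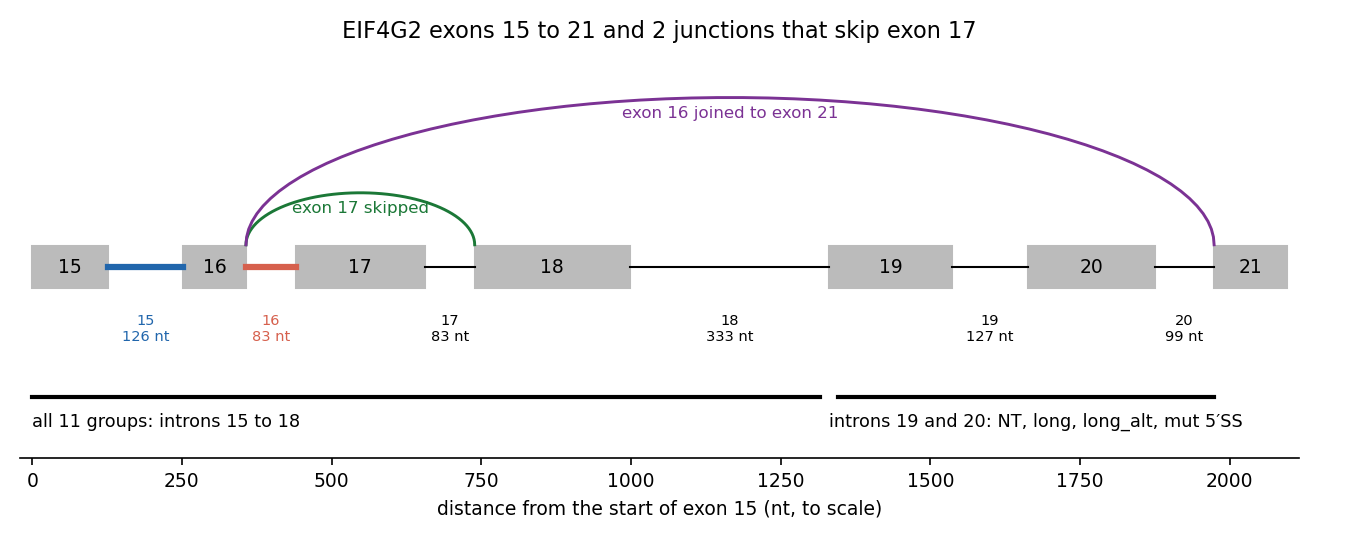
Map of EIF4G2 exons 15 to 21 (grey boxes, numbered) and introns (lines, with their lengths), drawn to scale against the distance from the start of exon 15 in nt. Introns 15 (blue, 126 nt) and 16 (red, 83 nt) were held by all 11 groups of samples, and the arcs mark the 2 junctions that most often passed over the 3′ splice site of intron 16, to exon 21 in long and long_alt and to exon 18 in short_1 and short_1_alt.

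The RT-PCR files held 24309 to 49577 reads each and the direct RNA files 296 to 3362. Reads over exactly the expected introns numbered 22762 to 46089 in RT-PCR and 186 to 1546 in direct RNA, and 0.0180 to 0.329% and 0 to 1.94% of them were undetermined at intron 15 or 16 and left out. Percentages below are of the remaining reads, skipped reads included. Reads carried no molecular identifiers, so binomial intervals cover counting error only. Replicates differed beyond that error in all 5 conditions (chi-square of 6.07 to 631 per degree of freedom). Retention of both introns was higher in replicate 2 than in replicate 1 in 5 of 5 conditions, by 2.39 to 6.70 times for intron 15 and 1.23 to 5.75 times for intron 16.

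Introns 15 and 16 were rarely retained in endogenous and long minigene molecules, and were retained more often in every library where introns 19 and 20 were absent. Intron 15 was retained in 0.0576% and 0.144% of NT reads in replicates 1 and 2. For long it was retained in 0.117% and 0.686% of reads, and for long_alt in 0.126% and 0.844%. In short_1 it was retained in 2.84% and 8.82% of reads, and in short_1_alt in 3.77% and 9.03%. Every library without introns 19 and 20 was therefore above every library with them, and the lowest of the former was 2.84% where the highest of the latter was 0.844%. The mean was 0.443% with introns 19 and 20 and 6.12% without (n = 4 libraries each, 13.8 times higher without), a difference of -5.67 percentage points (two-sided exact permutation test, p = 0.0286, Benjamini-Hochberg adjusted p = 0.107 over 12 comparisons). It was -3.19 points within replicate 1 and -8.16 points within replicate 2.

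Intron 16 showed the same split by introns 19 and 20 at a higher level, although NT was not the lowest condition. It was retained in 1.05% and 1.29% of NT reads, 0.212% and 1.20% of reads for long, and 0.313% and 1.80% for long_alt. It was retained in 5.97% and 14.3% of short_1 reads and in 8.33% and 17.7% of short_1_alt reads. Again the groups with and without introns 19 and 20 did not overlap. The means were 0.880% and 11.6% (13.2 times higher without, n = 4 each), a difference of -10.7 points (two-sided exact permutation test, p = 0.0286, adjusted p = 0.107), with -6.89 points within replicate 1 and -14.5 points within replicate 2. The smallest p that 4 libraries against 4 can give is 0.0286, so no comparison of groups could pass after adjustment, and none of the 12 did.

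Much of the difference for intron 15 lay in molecules that kept every intron. Reads with all 4 introns of the construct retained numbered 695 and 2359 in short_1 and 863 and 1685 in short_1_alt, while reads with all 6 retained numbered 0 and 36 in long and 0 and 48 in long_alt. Without these reads intron 15 was retained in 0.788% to 1.74% of reads of the 4 libraries lacking introns 19 and 20 and in 0.117% to 0.697% of the 4 holding them. The difference in means became -0.936 points, which still left the groups apart (two-sided exact permutation test, p = 0.0286). That of intron 16 became -6.29 points at the same p. Whether reads that kept every intron came from RNA or from plasmid DNA was not tested in RT-PCR. The RNA had been treated with DNase.

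The allele in intron 17 could not give a difference in retention that passed the test, and minigenes against NT gave none that did. The alternative allele differed from the reference by 0.329 points at intron 15 and 1.63 points at intron 16, exchanged within architecture (exact permutation test, p = 0.5 and p = 0.444, smallest possible 0.0556). Within replicates 1 and 2 the alternative allele was higher in each pair. At intron 15 it was higher by 0.00942 and 0.158 points in the long architecture and by 0.931 and 0.216 in the short. At intron 16 these values were 0.101 and 0.602 in the long architecture and 2.36 and 3.46 in the short. The 8 minigene libraries differed from the 2 NT libraries by 3.18 points at intron 15 (exact permutation test, p = 0.133) and by 5.06 points at intron 16 (exact permutation test, p = 0.489). These 8 mix both architectures, and the means without introns 19 and 20 were 6.12% at intron 15 and 11.6% at intron 16. In the same order the means were 0.402% and 0.704% for long, 0.485% and 1.06% for long_alt, and 0.101% and 1.17% for NT. At intron 16, replicate 1 of long and of long_alt lay below both NT libraries. At intron 15, NT replicate 1 lay below all 8 minigene libraries, and NT replicate 2 lay above replicate 1 of long and of long_alt.

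**Figure D2:**
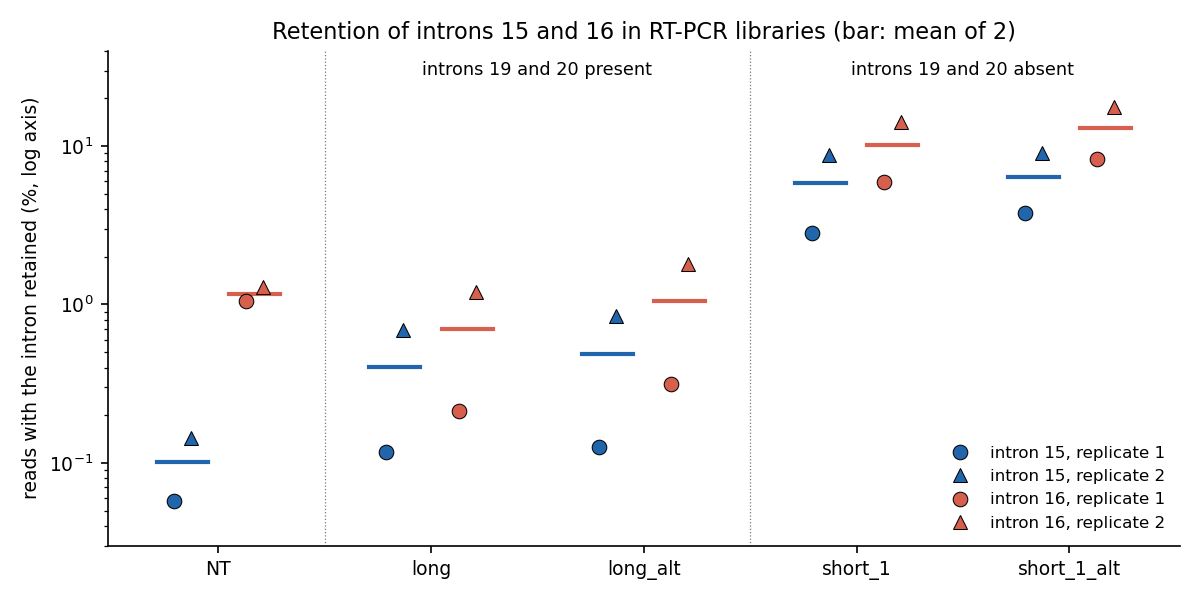
Percentage of reads with intron 15 (blue) or intron 16 (red) retained in the 10 RT-PCR libraries, on a log axis, with replicate 1 as circles, replicate 2 as triangles and a bar at the mean of 2. The 4 libraries without introns 19 and 20 lie between 2.84% and 17.7%, above all libraries that hold them, and intron 16 lies above intron 15 in each library.

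Intron 15 was the better removed of the pair in every library. Retention of intron 16 exceeded that of intron 15 in 8 of 8 minigene RT-PCR libraries, by 2.95 ± 3.11 points (SD, n = 8, two-sided exact sign-flip permutation test, p = 0.0078, adjusted p = 0.0156 over 6 within-library tests). The ratio ranged from 1.62 to 2.48 in these libraries and was 18.1 and 8.93 in NT, where the counts behind intron 15 were 14 and 40 reads. Direct RNA gave ratios from 1.87 to 5.01, above 1 in all 6 libraries. Intron 15 was the least retained of introns 15 to 18 in 16 of 16 libraries. Retention rose at each step from intron 15 to intron 18 in 13 of 16 libraries, the exceptions being the long_alt libraries and mut 5′SS direct RNA, in which intron 17 and its neighbours changed places.

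Among the RT-PCR minigenes, skipping of intron 16 went the other way, being more frequent with introns 19 and 20 than without. For long it was scored in 6.64% and 3.90% of reads, and for long_alt in 8.81% and 9.36%. It was scored in 1.38% and 1.17% of short_1 reads, 0.901% and 0.851% of short_1_alt reads, and 0.379% and 0.231% of NT reads. All 4 libraries with introns 19 and 20 stood above the 4 without, with means of 7.18% and 1.08% (6.67 times, a difference of 6.10 points, two-sided exact permutation test, p = 0.0286, adjusted p = 0.107). The difference was 6.58 points within replicate 1 and 5.62 points within replicate 2. The 8 minigene libraries also stood above both NT libraries, by 3.82 points on average (exact permutation test, p = 0.0444, adjusted p = 0.107). Skipping of intron 15 was rare throughout, between 0.0247% and 0.250%, and the means with and without introns 19 and 20 were 0.191% and 0.139% (exact permutation test, p = 0.114). It was higher in all 8 minigene libraries than in NT, by 0.126 points (exact permutation test, p = 0.0444, adjusted p = 0.107).

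The junctions behind these calls differed between architectures. The 5′ splice site of intron 16 was used and its 3′ splice site passed over in most skipped reads. Exon 16 was joined past the acceptor of exon 19, to exon 20 or 21, in 4.67% and 2.20% of reads for long and in 7.26% and 7.502% for long_alt. In direct RNA of the long minigene the same event took 5 of 985 reads (0.508%, 95% Wilson interval 0.217 to 1.18%), a share below that of all 4 RT-PCR minigene libraries with introns 19 and 20. The part of PCR in these shares was not tested. The single most frequent such combination joined exon 16 to exon 21, in 1329 of 50288 reads for long and 4284 of 78459 for long_alt, and in 60 of 52052 NT reads. Exons 20 and 21 were missing from the short architecture, where reads scored as passing the exon 19 acceptor took 0.00882% to 0.0368% of reads. Skipping of exon 17 alone, which both architectures allow, took 1.01% and 0.657% of long reads, 0.819% and 0.595% of short_1 reads, 0.343% and 0.443% of long_alt reads and 0.285% and 0.379% of short_1_alt reads, against 0.0165% and 0.0108% in NT. Reads undetermined at intron 17 could not be counted as this event. The groups with and without introns 19 and 20 overlapped in it, with means of 0.613% and 0.520% (exact permutation test, p = 0.657). The alleles did not overlap, with means of 0.770 ± 0.184% for the reference and 0.363 ± 0.0660% for the alternative allele (SD, n = 4 each). That difference of -0.407 points had the smallest p the exchange within architecture allows (exact permutation test, p = 0.0556), and did not pass. Both comparisons of exon 17 were chosen after their values were seen, and the adjusted p of the second was 0.111 over the 2 permutation tests.

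**Figure D3:**
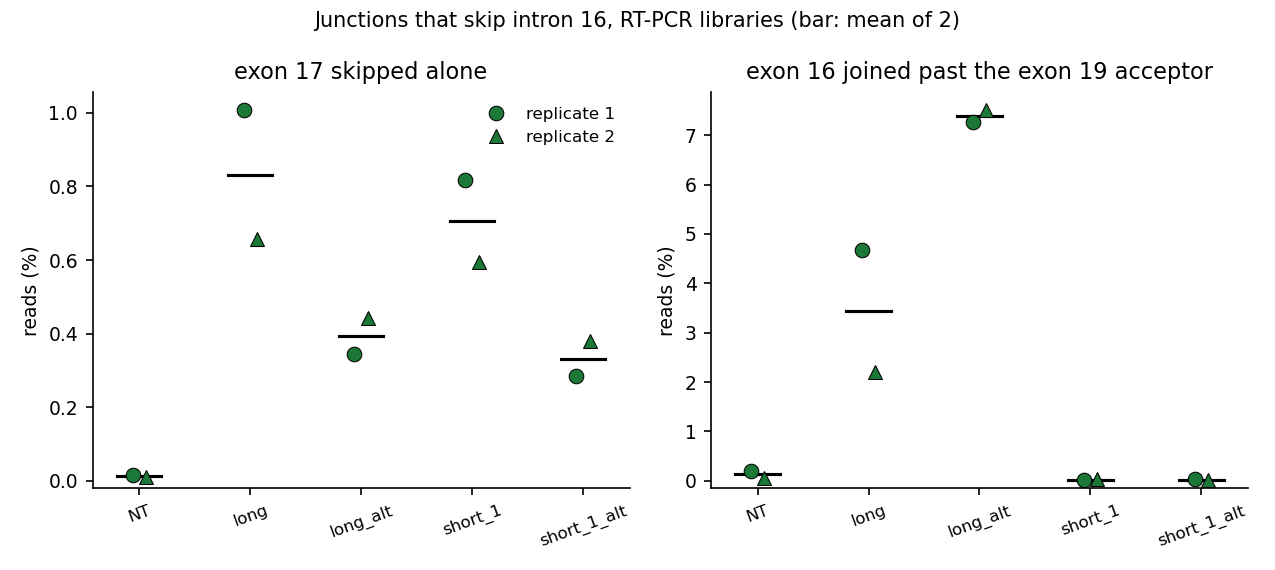
Percentage of RT-PCR reads with exon 17 skipped alone (left) and with exon 16 joined past the acceptor of exon 19 (right), with replicate 1 as circles, replicate 2 as triangles and a bar at the mean of 2. The left panel orders the minigenes by allele (0.595% or more against 0.443% or less), and the right panel by the presence of introns 19 and 20, without which exons 20 and 21 were absent too.

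Retention of the introns was coupled on single molecules. Among reads without introns 19 and 20 that retained intron 15, 87.0% on average also retained intron 16 (83.9 to 90.4%, 4 libraries), against 6.59% of those with intron 15 excised. Of the reads that retained intron 16, 44.9% retained intron 15 (38.3 to 55.8%). In NT these shares were 81.9% and 7.02%, and with introns 19 and 20 they were 21.4% (0 to 44.6%, 4 libraries) and 10.98%. The gap between the shares follows from the higher retention of intron 16 and is no further result. With intron 15 excised, the run of introns 16 to 18 retained together was the most frequent combination with either intron retained in short_1_alt (3270 of 53682 reads) and NT (200 of 52052), and the second in short_1 (2608 of 66288), after all 4 retained (3054).

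Across the 8 minigene libraries, retention of intron 16 was higher on reads with intron 15 retained than on reads with it excised by 50.6 ± 35.4 points (SD), in 7 of 8 libraries (exact sign-flip permutation test, p = 0.0156, adjusted p = 0.0188). For introns 15 and 17 the difference was 42.5 ± 29.9 points in 7 of 8 libraries (exact sign-flip permutation test, p = 0.0156, adjusted p = 0.0188). For introns 15 and 18 it was 19.3 ± 14.1 points in 6 of 8 (exact sign-flip permutation test, p = 0.0313, adjusted p = 0.0313). Intron 16 was coupled to intron 17, the next intron downstream, by 69.8 ± 13.1 points in 8 of 8 libraries and to intron 18 by 37.1 ± 17.9 points in 8 of 8 (exact sign-flip permutation tests, p = 0.0078, adjusted p = 0.0156 each). Without reads that kept every intron, the difference for introns 15 and 16 was 23.3 points, that for introns 15 and 17 was 10.6, that for introns 15 and 18 was 7.13, and those for intron 16 with introns 17 and 18 were 65.6 and 35.0. With all reads kept, libraries without introns 19 and 20 retained intron 18 on 61.3 to 77.1% of reads with intron 16 excised. The range was 62.3 to 78.6% with intron 15 excised. These shares cap the differences for intron 18, so their size cannot be ranked against those for intron 17. In NT the differences were 63.5 and 75.5 points for introns 16 and 17, and 73.4 and 75.2 for introns 16 and 18.

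All 4 RT-PCR minigene libraries with introns 19 and 20 stood below the 4 without in the share of reads with intron 15 retained that also retained intron 16. NT, which holds these introns too, did not share this, with 10 of 14 reads (71.4%) and 36 of 39 (92.3%). Direct RNA gave 5 of 5 reads of long and 13 of 14 of mut 5′SS, against 3 of 3 of short_1 and 6 of 8 of Δint19+20. In RT-PCR the share was 73 of 185 reads (39.5%) in long replicate 2 and 119 of 267 (44.6%) in long_alt replicate 2. It was lowest in replicate 1 of both, where few reads retained intron 15. In long replicate 1, 0 of 27 reads with intron 15 retained also retained intron 16, a Wilson interval of 0 to 12.5%, and in long_alt replicate 1 the share was 1 of 58. In 17 of those 27 reads the 5′ splice site of intron 16 was also unused and the downstream introns were skipped as well. The same kind made up 67 of 184 reads with intron 15 retained and introns 16 to 18 determined in long replicate 2. It was counted once in short_1_alt replicate 2 and not in the other libraries without introns 19 and 20. Leaving this kind out lowered retention of intron 15 to 0.0432% and 0.440% in long and to 0.0717% and 0.660% in long_alt, and moved the difference between architectures from -5.67 to -5.81 points. Of the remaining reads with intron 15 retained, 0 of 10 in long replicate 1 and 1 of 33 in long_alt replicate 1 also retained intron 16, against 61.9% in long replicate 2 and 57.5% in long_alt replicate 2.

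**Figure D4:**
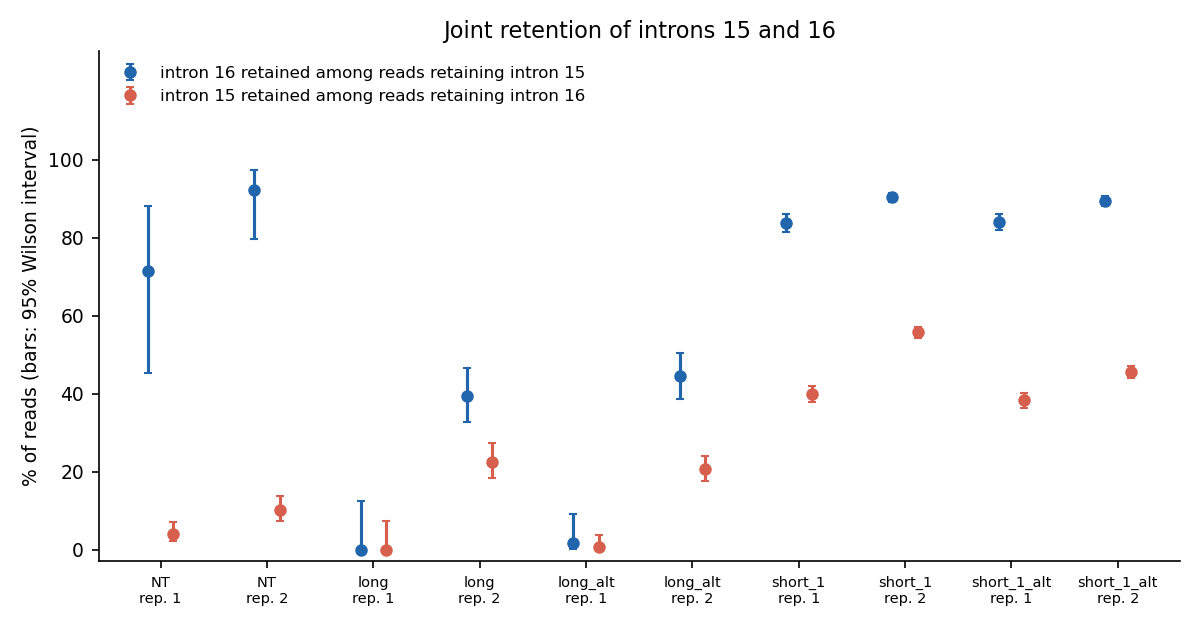
Percentage of reads with intron 16 retained among reads retaining intron 15 (blue) and with intron 15 retained among reads retaining intron 16 (red) in the 10 RT-PCR libraries, with 95% Wilson intervals. The first share lies between 83.9% and 90.4% in the 4 libraries without introns 19 and 20, where the second lies between 38.3% and 55.8%, and both are near 0 in replicate 1 of long and long_alt, with replicate 2 between.

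Direct RNA, in which no EIF4G2-specific primer or PCR was used, gave the same order of the pair. Its reads still had to reach intron 15 to be counted. Intron 15 was retained in 5 of 986 reads of long (0.507%, 95% Wilson interval 0.217 to 1.18%), 14 of 1540 of mut 5′SS (0.909%), 3 of 186 of short_1 (1.61%, 0.550 to 4.63%) and 8 of 258 of Δint19+20 (3.10%, 1.58 to 5.998%). The highest shares were 49 of 1189 in short + 72 nt (4.12%, 3.13 to 5.41%) and 9 of 202 in short + 72 nt + mut 5′SS (4.46%, 2.36 to 8.25%). Reads were compared between pairs of libraries with Fisher's exact test, which speaks of those libraries and not of the minigenes, and 3 of 7 pairs passed after adjustment over 14 tests of retention. Those were, by Fisher's exact test, Δint19+20 against long (adjusted p = 0.00264), short + 72 nt against long (adjusted p = 6.16e-08) and short + 72 nt + mut 5′SS against long (adjusted p = 0.000259). Without reads that kept every intron, only Δint19+20 against long passed. In that library no read can count as keeping every intron, since the deletions were scored as excised.

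Intron 16 was retained in 18 of 985 reads of long (1.83%, 1.16 to 2.87%) and 66 of 1546 of mut 5′SS (4.27%, 3.37 to 5.40%). Deleting introns 19 and 20 or leaving them out with all downstream sequence gave shares with overlapping intervals, 15 of 259 reads in Δint19+20 (5.79%, 3.54 to 9.33%) and 11 of 185 in short_1 (5.95%, 3.35 to 10.3%). The share was 210 of 1200 reads in short + 72 nt (17.5%, 15.5 to 19.8%) and 46 of 206 in short + 72 nt + mut 5′SS (22.3%, 17.2 to 28.5%). All 5 other libraries were above long (Fisher's exact test, adjusted p from 3.80e-37 to 0.00453), and short + 72 nt was above short_1 (Fisher's exact test, adjusted p = 7.10e-05). The pair with and without the mutated site in the added 72 nt differed by 4.83 points (Fisher's exact test, adjusted p = 0.137). The shares of both minigenes with the added sequence hold for reads that reach into the partial intron 19. Among the 159 reads of short + 72 nt that covered introns 15 to 18 alone, intron 16 was retained in 6 (3.77%, 1.74 to 7.99%), intron 15 in 3 (1.89%) and intron 16 was skipped in 8 (5.03%), and with these reads in place of the others retention of intron 16 was above long by 1.95 points and did not pass (Fisher's exact test, adjusted p = 0.227). Against short_1 the difference turned to -2.17 points. The library with the mutated site held 6 such reads.

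Skipping of intron 16 was most frequent in the library of short + 72 nt + mut 5′SS. It was skipped in 20 of 206 reads of short + 72 nt + mut 5′SS (9.71%, 6.37 to 14.5%) and in 22 of 1200 of short + 72 nt (1.83%, 1.21 to 2.76%), and in 19 of those 20 and 19 of those 22 reads exon 17 was skipped alone. The library with the mutated site differed from short + 72 nt and from long, at 17 of 985 (1.73%), with the same adjusted p (Fisher's exact test, 1.77e-06, over 14 tests of skipping). Over exactly introns 15 to 18 the pair with and without the mutated site turned to -5.03 points (0 of 6 against 8 of 159 reads). In the long minigene, the library with the intron 19 site mutated skipped intron 16 in 13 of 1546 reads (0.841%), below long without passing (Fisher's exact test, adjusted p = 0.215). None of the 5 pairs other than those of short + 72 nt + mut 5′SS passed, among them short_1 against long, where 0 of 185 reads allow a share of up to 1.62%. With 1 library for each minigene, differences between cultures were not measured. Intron 15 was skipped in at most 2 reads of any direct RNA library, and 0 of 7 pairs passed (Fisher's exact test, 0 at an unadjusted p under 0.05).

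On single RNA molecules, all reads with intron 15 retained also retained intron 18 in each of the 6 direct RNA libraries. These were 3 to 49 reads per library. With intron 15 excised, intron 18 was retained on 4.31% of reads in long and 5.71% in mut 5′SS. This share was 51.3% in short + 72 nt and 55.8% in Δint19+20. It was 70.6% in short_1 and 76.6% in short + 72 nt + mut 5′SS. There the Wilson intervals with intron 15 retained began lower, at 43.9% and 70.1%, so coupling to intron 18 was not resolved. Between 75% and 100% of reads with intron 15 retained also retained intron 16, and 20.9 to 40% of reads with intron 16 retained also retained intron 15. All 5 long reads with intron 15 retained kept all 6 introns. In Δint19+20, where the deleted introns cannot be retained and are scored as excised, 6 of 8 reads with intron 15 retained kept introns 15 to 18 together, and the other two had intron 16 excised.

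**Figure D5:**
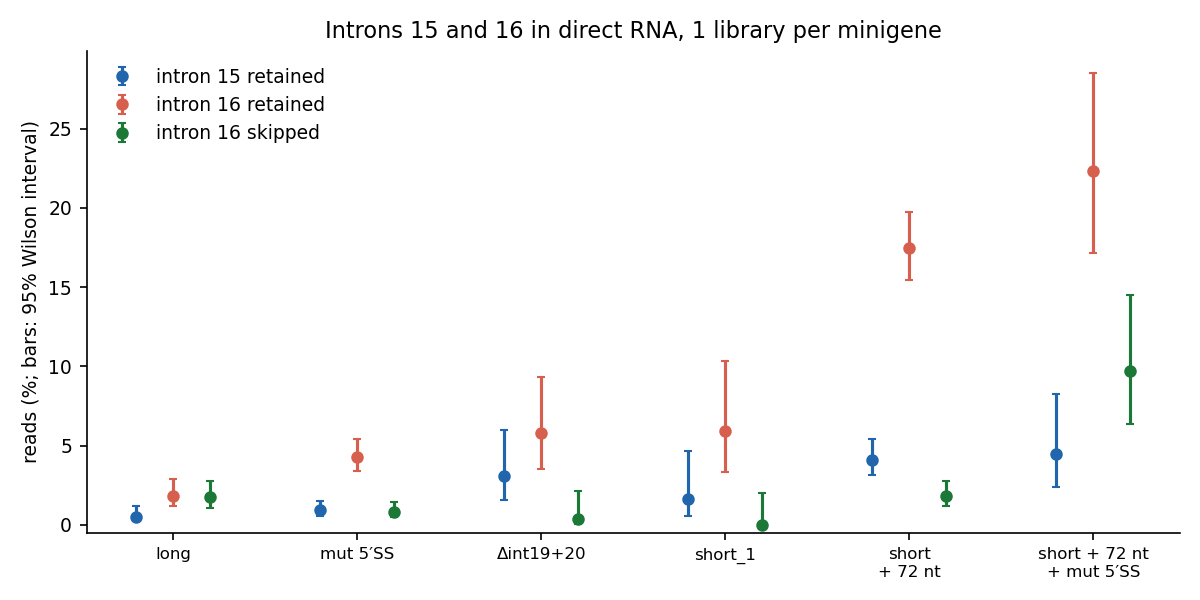
Percentage of direct RNA reads with intron 15 retained (blue), intron 16 retained (red) and intron 16 skipped (green) in 1 library for each of 6 minigenes, with 95% Wilson intervals that cover counting error only. Retention of intron 16 lies above that of intron 15 in all 6 libraries and is highest, at 17.5% and 22.3%, with the added 72 nt, and skipping of intron 16 reaches 9.71% in the library with the mutated site in the added sequence.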

How the data were processed

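Total RNA of HEK293T cells was treated with DNase, reverse transcribed with random primers and amplified with a minigene-specific forward primer (exon 15 for NT) and a reverse primer in exon 21, or in exon 19 for short_1 and short_1_alt. After basecalling, the authors mapped the reads with the spliced preset of minimap2 (reference GRCh38), discarded those without a unique position and deposited, per library, the read counts of each combination of intron statuses over 21 introns, without normalization or pooling. Unique mapping and the alignment of short exons affect which statuses could be scored.

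Here the intron numbers of the files were turned into transcript order, reads covering exactly the construct's introns were kept (plus the partial intron 19 where 72 nt had been added), and reads undetermined at the intron measured were left out. No minimum was set on reads per combination. Each library had equal weight. Differences between groups were tested by exact two-sided permutation of library percentages, those within libraries by exchange of signs, at a threshold of 0.05, and direct RNA reads by Fisher's exact test, each with Benjamini-Hochberg adjustment. Shares of single libraries have 95% Wilson intervals, and a share of 0 has the limit given by 3 counts. Python 3.11.15, SciPy 1.17.1 and matplotlib 3.10.9 were used. Counting was tested on simulated data. Splice sites came from GRCh38 with the GENCODE annotation of the transcript. Combinations were named when among the 3 most frequent of a condition. The introns, the statuses and the combinations named were chosen with earlier results of these data known. Alternatives changed the reads kept, the denominator, the minimum of 2 or 10 reads per combination, the scale, the pooling and exchange of replicates, and the libraries. Leaving out 2 kinds of reads with intron 15 retained was added after seeing the data.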

Additional observations from a re-analysis of the deposited data

Results flagged for a closer look

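The allele effect on skipping of intron 16 ran in opposite directions in the 2 architectures, without overlap of the libraries in either: long_alt was above long by 3.82 points and short_1_alt was below short_1 by 0.401 points (a value of -0.401). With 2 libraries on each side the smallest exact permutation p is 0.333, and the difference between the 2 effects was not tested. The skipped status also summed different junctions in the 2 architectures. Exon 16 was joined past the exon 19 acceptor in 4.67% and 2.20% of long reads and in 7.26% and 7.50% of long_alt reads. The exons reached by these junctions were missing from the short architecture. Exon 17 skipping alone, which both architectures allow, was lower with the alternative allele in both, so the opposite directions do not hold for this shared event.

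Reads that began after intron 15, which entered no comparison, also retained intron 16. In direct RNA the share was 3.11% in Δint19+20 (6 of 193 reads), 1.99% in mut 5′SS (24 of 1205), 13.2% in short + 72 nt (113 of 855) and 16.4% (40 of 244) in short + 72 nt + mut 5′SS, above the limit that a count of 0 allows and in each below the reads that spanned intron 15. The difference from spanning reads was -2.68 points in Δint19+20, -4.28 in short + 72 nt, and -5.94 once the added site was mutated. In RT-PCR it was 4.33% and 8.18% in short_1 and 5.85% and 12.7% in short_1_alt, above the 1.60% and 1.69% of NT and below the spanning reads of these 4 libraries. The difference ran the other way in NT (0.555 and 0.403 points above spanning reads), in long (0.0102 and 0.114) and in long_alt replicate 1 (0.224), and was -0.198 in long_alt replicate 2. No library was flagged as outlying in 8 groups of 4 libraries checked. With 4 values in a group, and replicates that differed as given above, that check says little about the libraries.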

How the results depend on the processing

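Of 263 other settings of the results that answer a comparison, 252 kept the direction and the side of the threshold. With the replicate block, in which labels were exchanged only among libraries of the same replicate number, values did not change, but the smallest possible p rose to 0.0556 for architecture and 0.08 for minigene against NT, so that retention of intron 15 (-5.67 points) and of intron 16 (-10.7), skipping of intron 16 (6.10), and skipping of intron 15 (0.126) and intron 16 (3.82) against NT no longer passed the exact permutation test. The labels do not say that the number marks a batch. Skipping of intron 15 against NT was 0.0412 points with combinations of at least 10 reads (exact permutation test, p = 0.222), and retention of intron 15 against NT was 0.789 points without reads that kept every intron (exact permutation test, p = 0.0444). Direct RNA pairs that passed numbered 1 for retention of intron 15, 3 for retention of intron 16 and 1 for skipping of intron 16 when the 2 minigenes with 72 nt were read over exactly introns 15 to 18, and 1 for retention of intron 15 without reads that kept every intron.

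With one library left out, 4 against 4 could not pass. Intron 15 retention by architecture ranged from -6.77 to -4.70 points, by allele from -1.53 to 2.23 and against NT from 2.36 to 3.63. Intron 16 retention ranged from -12.6 to -8.65 by architecture and from -1.94 to 4.58 by allele. Intron 15 skipping ranged from -0.0334 to 0.0124 by allele and from 0.111 to 0.140 against NT, intron 16 skipping from 5.37 to 7.19 by architecture and from 3.07 to 4.29 against NT, and exon 17 skipping from -0.0384 to 0.193 by architecture. Joint retention of introns 15 and 18 ranged from 17.2 to 22.4, with an exact permutation p of up to 0.0625. The allele differences in retention turned without replicate 1 of long or replicate 2 of short_1_alt, and at intron 15 also without replicate 2 of long. Those in intron 15 skipping by allele and exon 17 skipping by architecture turned without replicate 1 of long.

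Single direct RNA pairs that turned rested on few reads. Over exactly introns 15 to 18, short + 72 nt + mut 5′SS minus long was -0.507 points and minus short + 72 nt was -1.89 for retention of intron 15, -1.73 and -5.03 for skipping of intron 16, and short + 72 nt minus short_1 was -2.17 for retention of intron 16. Short + 72 nt + mut 5′SS minus short + 72 nt for retention of intron 15 was -4.12 with combinations of at least 10 reads and -0.175 without reads that kept every intron. With reads that extend further, skipping of intron 15 against long was 0.0408 in mut 5′SS. It was 0.184 for short + 72 nt + mut 5′SS, 0.283 when that added site was intact, and skipping of intron 16 in short + 72 nt was -0.0858. With reads over at least introns 15 to 18 the last 3 were 0.0854, 0.207 and -0.0357 in that order. The cause was not tested. The 186 to 1546 direct RNA reads limit every such share.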

Other observations

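A further kind of read used the 5′ splice site of intron 16 and passed over its annotated 3′ splice site while the splice sites of intron 17 were not skipped (intron 17 excised or retained). It made up 0.0658% and 0.0865% of NT reads in replicates 1 and 2, 0.134% and 0.155% of long reads, 0.109% and 0.146% of long_alt reads, 0.188% and 0.209% of short_1 reads and 0.107% and 0.132% of short_1_alt reads. All 8 minigene libraries were above both NT libraries. The counts do not give the position of the acceptor. In NT the combination in which all other introns were excised was the second most frequent with intron 16 skipped (39 of 52052 reads), after the junction of exon 16 to exon 21 (60).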
